A study of Mus musculus with 3 samples.

Results

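The killer cell lectin-like receptor genes are the 26 genes of the files whose symbol begins with Klr, out of 32285 listed genes. Their transcripts were followed through 3 single-cell RNA libraries made from cells of the large intestine of C57/BL6J mice with acute colitis. All mice, controls included, had drunk 1.5% dextran sulfate sodium (DSS, a detergent-like polymer that injures the gut lining) for 7 days and plain water for 3 days. Mice had been given 250 µg of an antibody into the abdomen 3 times a week, which was DATK32 in the first library, MECA-367 in the second and control rat IgG in the third. The labels present DATK32 as the stand-in for ontamalimab and MECA-367 as the stand-in for vedolizumab. By general knowledge DATK32 binds the gut-homing integrin alpha4beta7 and MECA-367 binds its vessel ligand MAdCAM-1, the reverse of that pairing with the drugs, so the libraries are called by clone and carry no drug name. Each group is 1 library, the number of mice and their age are not given in the sources used here, and no difference below has a replicate check or a p-value.

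These receptors are transmembrane proteins with a C-type lectin-like domain that natural killer (NK) cells, innate lymphoid cells (ILC) and some T cells carry, and most mouse members lie in the NK gene complex. They read molecules on neighbouring cells: Ly49 receptors (Klra genes) bind classical MHC class I, CD94 with an NKG2 chain (Klrd1 with Klrc genes) binds the non-classical molecule Qa-1, NKR-P1 receptors (Klrb1 genes) bind lectin-like proteins of the Clec2 group, NKG2D (Klrk1) binds stress-induced ligands, and KLRG1 binds cadherins. Inhibitory members carry an immunoreceptor tyrosine-based inhibitory motif (ITIM) in the cytoplasmic tail, whereas activating ones lack it and signal through adaptors such as DAP12 (Tyrobp), DAP10 (Hcst) or the Fc receptor gamma chain (Fcer1g).

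All 26 genes lie on chromosome 6 of GRCm38 in the GENCODE M21 annotation. Klrg2 starts at 38625693 and Klrg1 at 122270596, both on the minus strand and apart from the others. The remaining genes run from the start of Klrb1a at 128609227 to the end of Klra2 at 131247362. The first 60 codons of 1 annotated coding sequence per gene were searched for the ITIM, and 15 of 26 genes held a match. Among the 11 Ly49 genes the motif was at codon 6 in every gene except Klra4 and Klra8, which encode Ly49D and Ly49H, both known as activating. To show where these 2 genes differ in letters, the first 36 coding bases of Klra4 and Klra8 are shown with those of 4 relatives, codons 6 to 11 in capitals.
Klra4: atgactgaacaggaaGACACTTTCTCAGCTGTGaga
Klra8: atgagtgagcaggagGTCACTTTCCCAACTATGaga
Klra7: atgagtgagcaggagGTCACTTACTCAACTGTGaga
Klra6: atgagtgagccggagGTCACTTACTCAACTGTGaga
Klra1: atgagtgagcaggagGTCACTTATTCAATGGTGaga
Klra2: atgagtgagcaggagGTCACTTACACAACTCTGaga
Counted from 1 at the first base of the start codon and with Klra7 as the reference, Klra4 carries T17A, A23T and A28G in these codons, and Klra8 carries A23T, T25C and G31A. The shared change, A23T, falls in the codon of the motif's tyrosine. A motif match describes the letters only. Klrb1c, the activating NK1.1 antigen, had a match at codon 53 of the transcript used.

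Coding sequences of the 11 Ly49 genes were 59.4% to 96.9% identical in pairs, and some 3' ends are shared. Of 90-base windows in the last 500 bases of the annotated transcripts, 21.9% in Klrc1, 8.49% in Klrc2, 12.4% in Klra9, 6.57% in Klra7 and 5.15% in Klra3, and of the sparsely counted genes 15.6% in Klra10 and 5.92% in Klrc3, also occurred in another gene or pseudogene of the family. How the counting treated reads from such windows is not given in the sources used here, so counts of these genes are uncertain with respect to each other. Klrb1b and Klrb1c share exon bases on the same strand with Gm44511, a gene model that the deposited matrices do not list.

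The libraries held 5852, 5890 and 7367 cells for DATK32, MECA-367 and rat IgG after barcodes with fewer than 500 UMIs (unique transcript molecules) or 200 genes, or with over 10% mitochondrial UMIs, were left out. Although the labels describe a sort for viable CD45-positive cells, leukocyte classes made up 37.4%, 49.9% and 39.4% of them, and the rest were mainly epithelial and stromal. Between 7 and 11 barcodes were shared by any pair of libraries. Cells were clustered with all Klr genes left out, so the classes below were defined without the genes described, and each class name stands for cells that resemble that type by its markers. The NK cell class, which also takes in ILC1 (tissue-resident relatives of NK cells), had 225, 287 and 102 cells with medians of 1062, 1164 and 700.5 UMIs. T cells numbered 759, 880 and 693, with medians of 955, 1276.5 and 767 UMIs. Levels are CPM, the UMIs of a gene scaled to the total UMIs of the class, and brackets after a CPM hold exact Poisson 95% intervals. Brackets after a percentage of cells or UMIs hold exact binomial (Clopper-Pearson) 95% intervals, and both kinds cover counting error only. Levels of different genes are not compared, because capture differs between transcripts.

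Klr transcripts were highest in NK cells with ILC1, followed by T cells. The 26 genes summed to 3322, 3934 and 3697 CPM in NK cells with ILC1 of the DATK32, MECA-367 and rat IgG libraries. T cells had 1156, 1230 and 970 CPM. Monocytes with macrophages had 269, 335 and 339 CPM, ILC2 had 327, 289 and 192 CPM, and stromal cells, which should lack these receptors, had at most 118 CPM. Epithelial cells had 7.98, 10.1 and 6.63 CPM. NK cells with ILC1 thus held 31.3% [29.7 to 33.0], 30.6% [29.3 to 31.9] and 17.0% [15.3 to 18.7] of all Klr UMIs. Rat IgG, with the smallest share, also had the fewest such cells, and its summed level lay between those of the other libraries. Of the 26 genes, 24 had at least 20 UMIs over the leukocytes, Klrc3 (NKG2E) had 2 UMIs and Klra10 had 0.

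**Figure D1:**
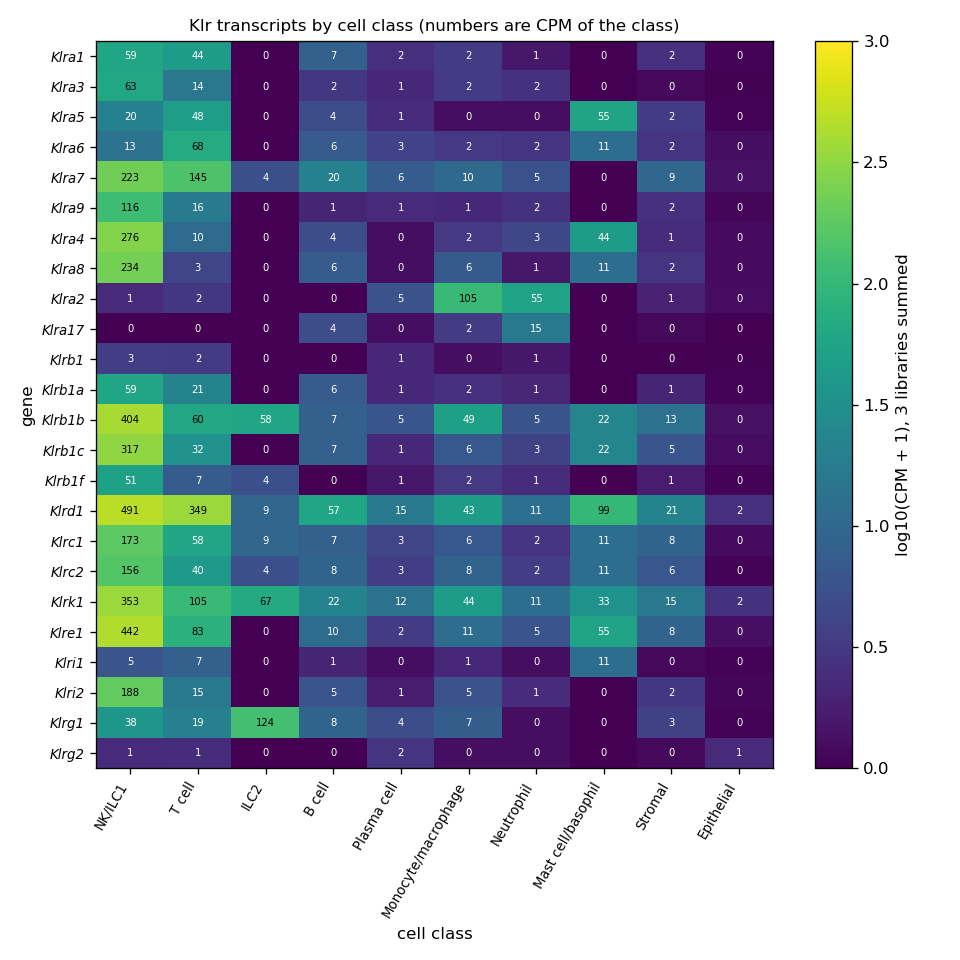
Levels of 24 Klr genes (rows) in 10 cell classes (columns), with the 3 libraries summed; the colour is log10(CPM + 1) and the printed number is the CPM. Most genes are highest in NK cells with ILC1, Klra6 and Klra5 are higher in T cells than in NK cells with ILC1, Klrg1 is highest in ILC2, and Klra2 and Klra17 appear in myeloid classes; the mast cell or basophil column rests on 66 cells.

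The activating Ly49 genes were far higher in NK cells with ILC1 than in T cells. Klra4, which encodes Ly49D, had 65, 127 and 20 UMIs in NK cells with ILC1, or 233, 318 and 225 CPM. In T cells Klra4 had 5.77, 14.4 and 8.08 CPM. Klra8, which encodes Ly49H, the receptor for the m157 protein of mouse cytomegalovirus, had 258, 190 and 360 CPM in NK cells with ILC1. Only 2, 4 and 5 UMIs of Klra8 were found in T cells of DATK32, MECA-367 and rat IgG, 3.25 CPM over the libraries, which is near the 1.91 CPM of stromal cells. In ILC2, Klra4 and Klra8 had no UMI in any library, which allows up to 13.3 CPM of each over the libraries (3 counts; counting error only).

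Klra7, Klra1 and Klra5 with Klra6 showed other patterns. Klra7, which encodes the inhibitory Ly49G2, was found in both classes, at 154, 268 and 236 CPM in NK cells with ILC1 and at 146, 171 and 88.9 CPM in T cells. Klra1, which encodes inhibitory Ly49A, had 58.6 CPM [42.8 to 78.4] in NK cells with ILC1 and 43.7 CPM [37.0 to 51.4] in T cells over the 3 libraries. Klra6 (Ly49F) was instead higher in T cells, at 71.2, 76.7 and 45.8 CPM, than in NK cells with ILC1, where 2, 7 and 1 UMIs gave 13.0 CPM [6.25 to 24.0] in all. Klra5 (Ly49E) had 47.6 CPM [40.5 to 55.5] in T cells against 19.5 CPM [10.9 to 32.2] in NK cells with ILC1, where 12 of its 15 UMIs came from the DATK32 library. Klra3 (Ly49C) and Klra9 (Ly49I), receptors for MHC class I, were higher in NK cells with ILC1, at 62.5 CPM [46.1 to 82.9] for Klra3 and 116 CPM [93.1 to 143] for Klra9, than in T cells, at 14.5 CPM [10.7 to 19.1] for Klra3 and 15.7 CPM [11.7 to 20.5] for Klra9.

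A pair of Ly49 genes was highest in myeloid cells and close to absent in NK cells with ILC1 and T cells. Klra2, which encodes the inhibitory Ly49B, had 96.7, 125 and 77.0 CPM in monocytes with macrophages and 44.8, 60.9 and 40.7 CPM in neutrophils, against 1 UMI in all NK cells with ILC1 and 7 UMIs in all T cells. Klra17, which encodes Ly49Q, a receptor known from plasmacytoid dendritic cells and neutrophils, had 56 of its 73 UMIs in neutrophils. They split into 4, 49 and 3 UMIs for DATK32, MECA-367 and rat IgG, and 47 of the 49 in MECA-367 lay in the neutrophil cluster led by S100a9, S100a8, Retnlg and Ngp. In that cluster Klra17 had 1.86, 24.0 and 6.46 CPM.

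Among NKR-P1 receptors, Klrb1c (NK1.1) followed NK cells with ILC1, at 329, 301 and 348 CPM, against 36.6, 21.2 and 47.2 CPM in T cells. Klrb1b, the inhibitory receptor for Clec2d, was found more widely. It had 444, 353 and 506 CPM in NK cells with ILC1, 63.5, 47.4 and 83.5 CPM in T cells, and 40.8, 50.2 and 57.5 CPM in monocytes with macrophages. In ILC2, Klrb1b had 13 UMIs, or 57.8 CPM [30.8 to 98.8], and in stromal cells it had 12.7 CPM. The intervals of monocytes with macrophages, 49.4 CPM [42.1 to 57.6], and stromal cells did not overlap for Klrb1b; T cell receptor RNA was also present in these monocytes with macrophages, with Trbc2 at 126 CPM, and its part in the result was not tested. Klrb1a had 58.6 CPM and Klrb1f 50.8 CPM in NK cells with ILC1, against 20.7 CPM for Klrb1a and 6.50 CPM for Klrb1f in T cells. Klrb1 had 22 UMIs in all, of which T cells and plasma cells held 8 each.

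Klrd1, the CD94 chain shared by the NKG2 heterodimers, was found in both lymphocyte classes, at 354, 611 and 382 CPM in NK cells with ILC1 and 322, 389 and 299 CPM in T cells. Klrc1, the inhibitory NKG2A chain, had 173 CPM [145 to 205] in NK cells with ILC1 and 58.2 CPM [50.4 to 66.9] in T cells, and Klrc2, the activating NKG2C chain, had 156 CPM [130 to 187] and 39.6 CPM [33.2 to 46.9] in the same classes. Few cells yielded both partners at this depth. Of NK cells with ILC1, 14 of 225, 23 of 287 and 3 of 102 had a UMI of both Klrd1 and Klrc1. Klrk1, which encodes the activating receptor NKG2D, had 353 CPM [312 to 398] in NK cells with ILC1, 105 CPM [94.3 to 116] in T cells, 66.7 CPM [37.3 to 110] in ILC2, 43.6 CPM [36.7 to 51.3] in monocytes with macrophages and 14.9 CPM in stromal cells. Klrd1 was likewise found in monocytes with macrophages, which held 141 UMIs of Klrd1, 143 of Klrk1 and 162 of Klrb1b. Stromal cells, with more UMIs in all, held 119, 86 and 73 of the same genes. The part of RNA from other cells was not tested.

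Klre1 and Klri2, whose products form an activating heterodimer, were both higher in NK cells with ILC1 than in T cells. Klre1 had 405, 473 and 416 CPM in NK cells with ILC1 and 74.1, 97.3 and 63.3 CPM in T cells. Klri2 had 147, 235 and 101 CPM in NK cells with ILC1 and 11.5, 19.3 and 12.1 CPM in T cells. Klri1, the inhibitory partner of Klre1, ran the other way in number of UMIs, with 4 UMIs in NK cells with ILC1 and 25 in T cells, but its levels of 5.21 CPM [1.42 to 13.3] and 7.39 CPM [4.78 to 10.9] overlapped.

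KLRG1 is a cadherin receptor of ILC2, regulatory and effector T cells. Among the cell classes, its gene had its highest level over the 3 libraries summed in ILC2. The regulatory-like T cell sub-cluster described below had Klrg1 above the ILC2 level in DATK32 and rat IgG, and below it in MECA-367. Klrg1 had 154, 145 and 24.0 CPM in ILC2, from 8, 19 and 1 UMIs in 52, 135 and 41 cells. Over the libraries that was 124 CPM [82.7 to 180], against 37.8 CPM [25.3 to 54.3] in NK cells with ILC1 and 19.2 CPM [14.8 to 24.5] in T cells. By library, NK cells with ILC1 had Klrg1 at 39.4, 30.1 and 67.4 CPM from 11, 12 and 6 UMIs, so in rat IgG the class level of NK cells with ILC1 was above that of ILC2, which rested on 1 UMI. Of the Ly49 genes, ILC2 held a single UMI, from Klra7, among 228 cells. Klrg2 was the only member with more UMIs outside the leukocytes than within them, since leukocytes held 21 of its 88 UMIs. Of the 88, 34 lay in a cluster led by the squamous keratin genes Krt14, Krt5 and Krt6a, where Klrg2 had 16.3 CPM, against 1.19 CPM and 1.39 CPM in the largest epithelial clusters. That cluster had 178, 0 and 231 cells in DATK32, MECA-367 and rat IgG.

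Within the NK class, 1 of 8 sub-clusters was ILC1-like by markers fixed for it and had Ccdc184, Gzmc and Inpp4b as its 3 leading genes. It held 55, 51 and 18 cells, 24.4%, 17.8% and 17.6% of the class. Eomes, a transcription factor of conventional NK cells, stood at 19.0 CPM in it and at 207 CPM in the other sub-clusters. Eomes was on the marker list for conventional NK cells, and Gzmc and Inpp4b were on that for ILC1. These genes thus took part in the naming and are not separate support for it. The summed Klr level was alike, 3632 CPM in ILC1-like cells and 3698 CPM in the others, but the genes that made it up differed. Klra4 had 2, 0 and 0 UMIs in ILC1-like cells, against 63, 127 and 20 UMIs in the other cells, or 12.7 CPM [1.54 to 45.9] against 344 CPM [299 to 394]. Klra8 had 44.4 CPM [17.9 to 91.6] in ILC1-like cells and 284 CPM [243 to 329] in the others, and Klra7 had 57.1 CPM [26.1 to 108] and 266 CPM [226 to 310]. In every library these 3 Ly49 genes were lower in the ILC1-like cells. In rat IgG, with 18 such cells, the intervals overlapped for Klra4 and Klra7. They were 0 to 221 CPM against 169 to 427 CPM for Klra4, and 37.1 to 526 CPM against 147 to 393 CPM for Klra7.

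Klrb1b was higher in ILC1-like cells in each library, at 821, 826 and 900 CPM for DATK32, MECA-367 and rat IgG, against 325, 246 and 415 CPM in the other cells. Klrc1 was likewise higher, at 313, 420 and 480 CPM in ILC1-like cells against 122, 111 and 152 CPM in the others. In rat IgG the intervals overlapped for Klrb1b (504 to 1485 against 280 to 592 CPM) and for Klrc1 (207 to 946 against 75.9 to 272 CPM). Klrg1 had 76.2 CPM [39.4 to 133] in ILC1-like cells and 27.9 CPM [16.2 to 44.6] in the others, with overlapping intervals. For Klrd1 (413 CPM [319 to 526] against 511 CPM [456 to 571]), Klre1 (400 CPM against 452 CPM), Klrk1 (432 CPM against 333 CPM), Klrb1c (254 CPM against 333 CPM), Klra3 (63.5 CPM against 62.3 CPM) and Klra1 (76.2 CPM against 54.1 CPM), the intervals also overlapped.

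**Figure D2:**
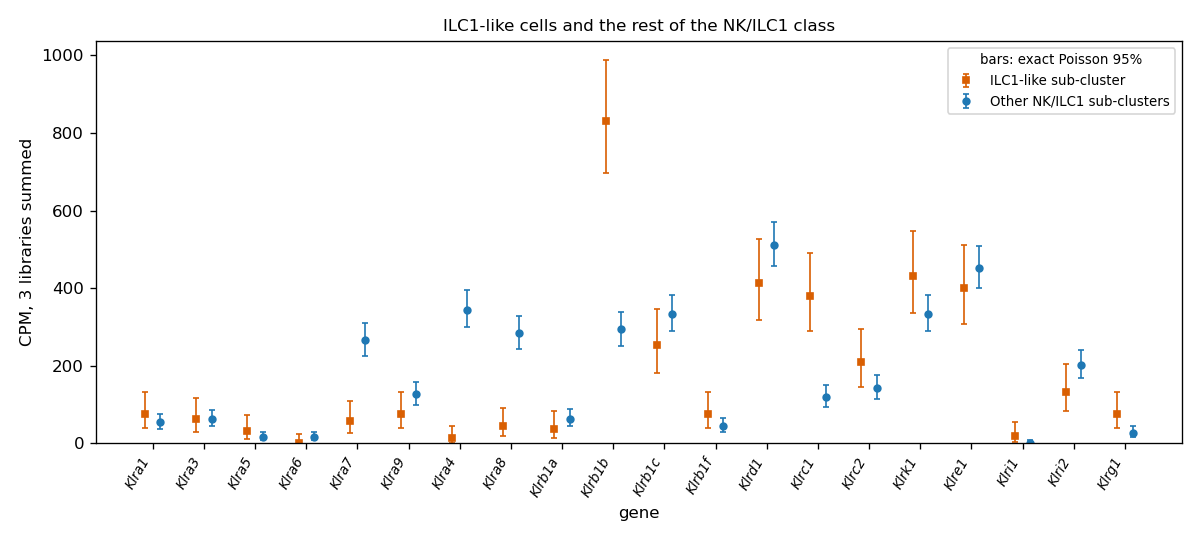
Levels of 20 Klr genes in the ILC1-like sub-cluster (orange squares, 124 cells) and in the other NK/ILC1 sub-clusters (blue circles, 490 cells), in CPM with exact Poisson 95% intervals, 3 libraries summed. Klrb1b and Klrc1 are higher in ILC1-like cells, Klra4, Klra8 and Klra7 are lower, and the intervals overlap for Klrd1, Klre1 and Klrk1.

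T cells fell into 2 clusters that differed widely in these genes. The cluster led by Cd7, Ikzf2, Cd8a and Cd160 (480, 589 and 469 cells) had a summed Klr level of 1655, 1870 and 1313 CPM. The cluster led by Il22, Tnfrsf4, Ctla4 and Icos (279, 291 and 224 cells) had 437, 338 and 362 CPM. Klra7 had 229 CPM [209 to 251] in the Cd7-led cluster and 21.3 CPM [14.3 to 30.6] in the Il22-led one, and Klrd1 had 539 CPM [508 to 572] and 66.8 CPM [53.8 to 82.0]. Klrg1 was reversed, with 2 UMIs in the Cd7-led cluster and 63 in the Il22-led one. Klrb1b was near level, at 66.3 CPM [55.5 to 78.5] and 51.4 CPM [40.0 to 64.9].

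The 13 T cell sub-clusters resolved this further. The cytotoxic-like sub-cluster, led by Gzma, Ccl4 and Cd200r2 with Cd8a at 540 CPM and the gamma-delta receptor gene Trdc at 486 CPM, had Klra7 at 372 CPM [275 to 492], Klra5 at 213 CPM, Klra6 at 167 CPM and Klrd1 at 768 CPM [625 to 933]. The sub-cluster led by Prag1, Chst12 and Gpr55 had Klrd1 at 774 CPM, Klra7 at 309 CPM and Klra6 at 206 CPM. The regulatory-like sub-cluster, with Foxp3 among its leading genes, held 51 of the 65 T cell UMIs of Klrg1, at 183, 90.02 and 179 CPM, and its Klra7 level was 27.8 CPM. In the sub-cluster led by Cd8b1, Cmah and Gm8369, with Ccr7 among its 10 leading genes, Klrd1 reached 342 CPM while Klra7 had 30.5 CPM and Klra5 had no UMI.

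Klrb1b was also found in 2 T cell sub-clusters without a UMI of any Ly49 gene, led by Il17a and by Il22. The sub-cluster led by Il17a, Cd163l1 and Il17f, with Trdc at 853 CPM, had Klrb1b at 242 CPM [165 to 344] and Klrk1 at 211 CPM in its 119 cells. The small sub-cluster led by Il22, Bmp2 and Pxdc1 (38 cells) had Klrb1b at 556 CPM [335 to 869]. It had no Cd3e UMI and Trbc2 at 87.8 CPM, against 977 CPM of Trbc2 over all T cells, so its T cell name is not borne out by these receptor genes. A further sub-cluster, led by Serpinb9, Ern1 and Irf8, had UMIs of Ly49 genes, with Klra7 at 230, 336 and 97.6 CPM. It carried the NK cell gene Ncr1, at 92.0, 31.2 and 195 CPM, and it had Klrb1b at 212, 125 and 663 CPM. Tyrobp was among its leading genes, and its leading genes Serpinb9 and Serpinb6b also led the NK cell class. Whether it holds NK cells was not tested.

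**Figure D3:**
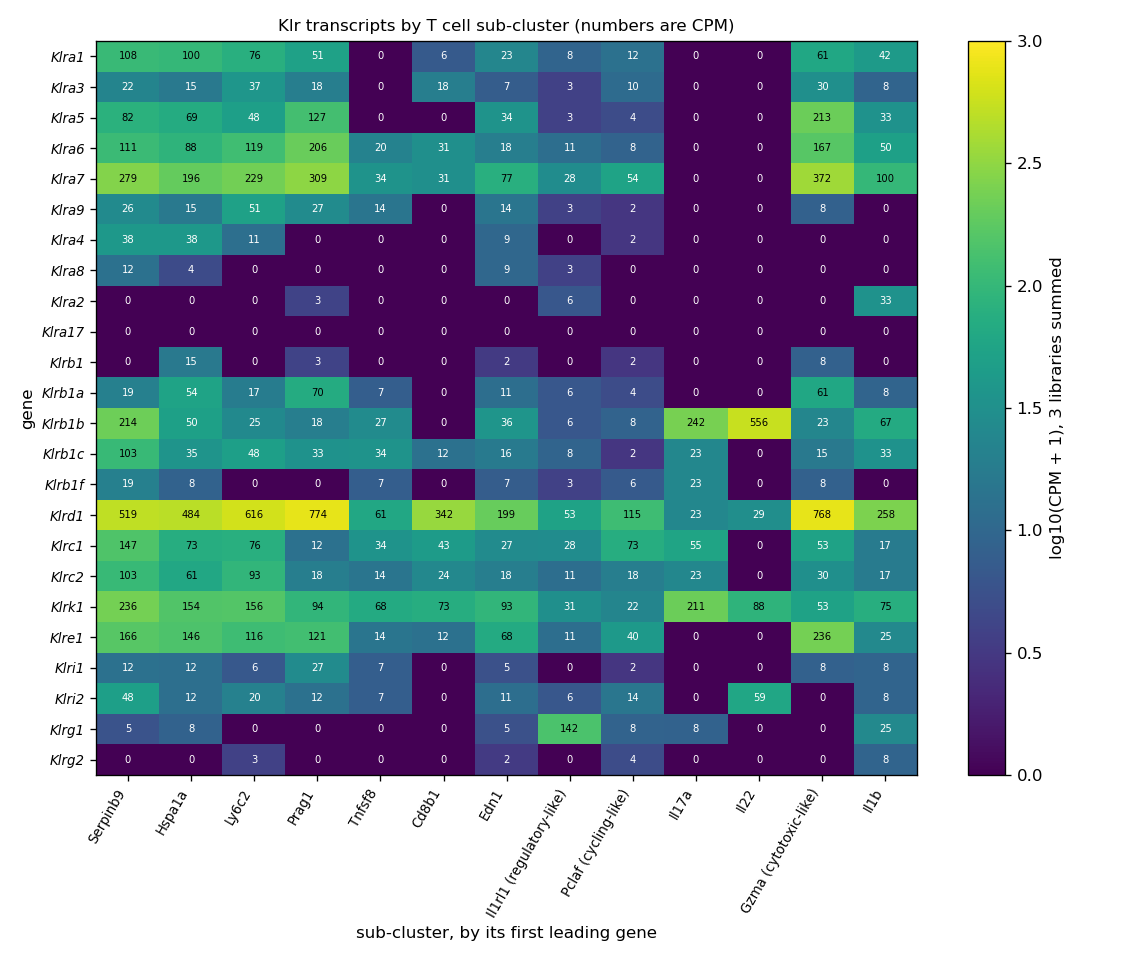
Levels of 24 Klr genes (rows) in 13 T cell sub-clusters (columns, named by their first leading gene), 3 libraries summed; the colour is log10(CPM + 1) and the printed number is the CPM. Klrd1 and Klra7 are high in the 4 leftmost sub-clusters and in the cytotoxic-like one, Klrg1 marks the regulatory-like one, and Klrb1b stands highest in the sub-clusters led by Il22 and by Il17a.

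How many receptors a single cell yields depends on its depth, so cells with at least 1000 UMIs were thinned to 1000, which left out the shallower cells. This kept 119 of 225, 176 of 287 and 28 of 102 NK cells with ILC1, and 354 of 759, 620 of 880 and 239 of 693 T cells. At that depth 93.3%, 93.2% and 96.4% of NK cells with ILC1 had a UMI of any Klr gene (92.4%, 96.5% and 90.2% of all cells of the class before thinning), against 4.55%, 4.05% and 5.94% of stromal cells. Any Ly49 gene, with myeloid Klra2 and Klra17 set aside, was found in 43.7% [34.6 to 53.1], 50.6% [42.9 to 58.2] and 50% [30.6 to 69.4] of NK cells with ILC1. In T cells it was found in 21.2% [17.0 to 25.8], 26.5% [23.02 to 30.1] and 16.3% [11.9 to 21.6] (25.4%, 28.3% and 16.7% before thinning), and in stromal cells in 1.46%, 1.10% and 0.609%. Of thinned NK cells with ILC1, 8.40%, 17.0% and 14.3% had UMIs of 2 Ly49 genes, and 5.88%, 5.68% and 0% had UMIs of 3 or more. In the Cd7-led T cells the share with any Ly49 gene was 30.1% [24.1 to 36.7], 38.8% [34.1 to 43.7] and 20.7% [14.4 to 28.2]. The MECA-367 and rat IgG intervals were apart in both T cell populations, and the DATK32 interval overlapped both others in each.

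The libraries were then compared within a class. A gene was measured with at least 50 UMIs over the 3 libraries, and called higher or lower when the levels differed at least 1.5-fold with the intervals apart. Ratios are log2 values after 1 count was added to each count. Comparisons with rat IgG share that library.

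In NK cells with ILC1, 12 Klr genes were measured. In DATK32 against rat IgG 0 of the 12 were called, where 2.36% of all 2202 measured genes were, and their log2 ratios ran from -0.65 to 0.42 with a median of -0.17 (all genes -0.12). In MECA-367 against rat IgG 2 of 12 were called, against 3.95% of all genes. Klrd1 was higher, at 611 CPM [537 to 693] in MECA-367 against 382 CPM [265 to 534] in rat IgG (log2 ratio 0.64), and Klra8 was lower, at 190 CPM [150 to 238] in MECA-367 against 360 CPM [246 to 508] in rat IgG (log2 ratio -0.94). Both pairs of intervals were separated by a narrow margin, and rat IgG had 34 UMIs of Klrd1 and 32 of Klra8. Under median-of-ratios scaling Klra8 was no longer called (log2 ratio -0.75) and Klri2 was called higher (log2 ratio 1.28), so the calls were 2 higher and 0 lower. In DATK32 against MECA-367, 2 of 12 were called, against 4.13% of all genes, and both were lower: Klrd1 at 354 CPM against 611 CPM in MECA-367, and Klra7 at 154 CPM [111 to 207] against 268 CPM [220 to 324] in MECA-367, with log2 ratios of -0.78 each. For both genes the rat IgG level can be set beside these, and it lay nearer DATK32 for Klrd1 and nearer MECA-367 for Klra7.

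**Figure D4:**
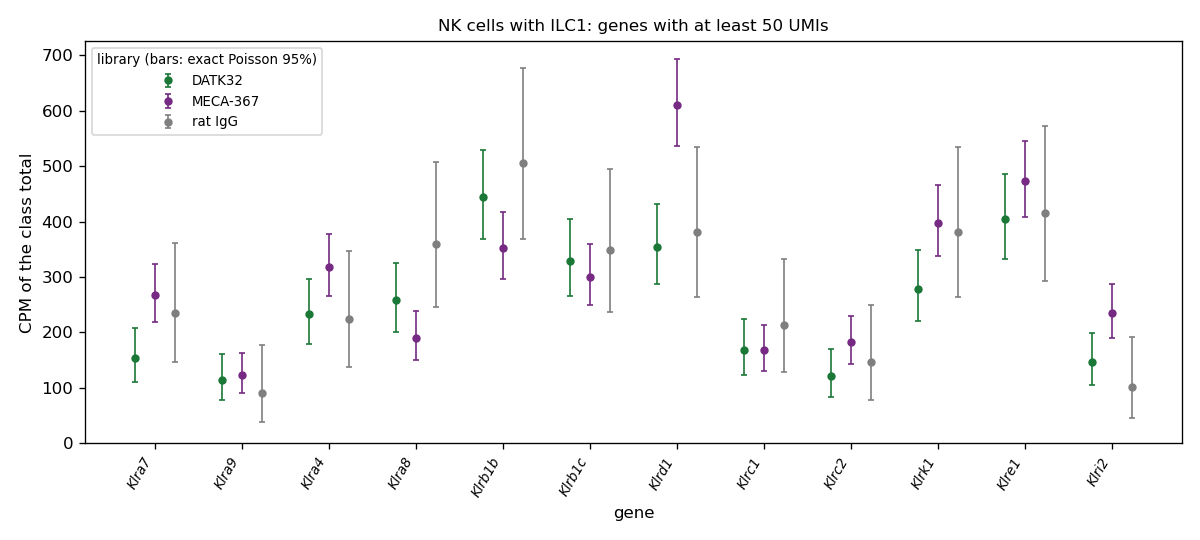
Levels of the 12 measured Klr genes in NK cells with ILC1, as CPM (y axis) with 95% counting intervals from the Poisson distribution, for the DATK32 (green), MECA-367 (purple) and rat IgG (grey) libraries. Most intervals overlap; Klrd1 in MECA-367 stands above both other libraries, and the rat IgG intervals are wide because that library has 102 such cells.

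Within the NK class, marker RNA of other cells differed between libraries. The summed level of 8 epithelial markers was 698, 506 and 955 CPM and that of 7 plasma cell markers 541, 393 and 1124 CPM for DATK32, MECA-367 and rat IgG, while B cell markers summed to 7.16, 7.51 and 56.2 CPM. The 9 T cell markers summed to 1607, 1503 and 1472 CPM in the NK class, beside 3791, 3995 and 3621 CPM in T cells. Their part in the result was not tested. Without the ILC1-like cells, Klra8 in MECA-367 against rat IgG remained lower (log2 ratio -1.005), Klrd1 in the same comparison was no longer called (log2 ratio 0.66), Klrd1 in DATK32 against MECA-367 remained lower (log2 ratio -0.75) and Klra7 in DATK32 against MECA-367 was no longer called (log2 ratio -0.64).

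In T cells, 15 Klr genes were measured, and the clearest difference between libraries was in Klra7. It had 152, 274 and 66 UMIs, or 146 CPM [124 to 171] in DATK32, 171 CPM [151 to 192] in MECA-367 and 88.9 CPM [68.8 to 113] in rat IgG. It was called higher in DATK32 (log2 ratio 0.70) and in MECA-367 (log2 ratio 0.93), each against rat IgG. In DATK32 against rat IgG 2 of 15 genes were called, both higher, against 1.81% of all 6642 measured genes. The other was Klrk1, at 121 CPM [101 to 144] in DATK32 against 75.5 CPM [57.0 to 98.0] in rat IgG (log2 ratio 0.67). The median log2 ratio of the 15 genes was 0.26, against -0.10 over all genes.

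In MECA-367 against rat IgG, 4 of 15 genes were called in T cells, against 8.66% of all genes, 2 in each direction, and the median log2 ratio was 0.50 (all genes -0.08). Besides Klra7, Klra1 was higher, at 52.4 CPM [41.8 to 64.9] in MECA-367 against 26.9 CPM [16.5 to 41.6] in rat IgG (log2 ratio 0.91). Klrb1b was lower, at 47.4 CPM [37.4 to 59.4] in MECA-367 against 83.5 CPM [64.1 to 107] in rat IgG (log2 ratio -0.82), and Klrb1c was lower, at 21.2 CPM against 47.2 CPM in rat IgG (log2 ratio -1.15). In rat IgG, 34 of the 62 Klrb1b UMIs of T cells came from the 56 cells of the Serpinb9-led sub-cluster that carries Ncr1. Under median-of-ratios scaling neither Klrb1b (log2 ratio -0.66) nor Klrb1c (log2 ratio -0.99) was called, whereas Klra6, Klrc1, Klre1 and Klrk1 were called higher, so the calls were 6 higher and 0 lower. With Klr genes left in the clustering the Klrb1b ratio turned positive (log2 ratio 0.19). In DATK32 against MECA-367, 1 of 15 genes was called, against 6.61% of all genes: Klrg1 was higher, at 29.8 CPM [20.3 to 42.3] in DATK32 against 10.6 CPM [6.18 to 17.0] in MECA-367 (log2 ratio 1.45). Rat IgG lay between them, at 22.9 CPM.

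**Figure D5:**
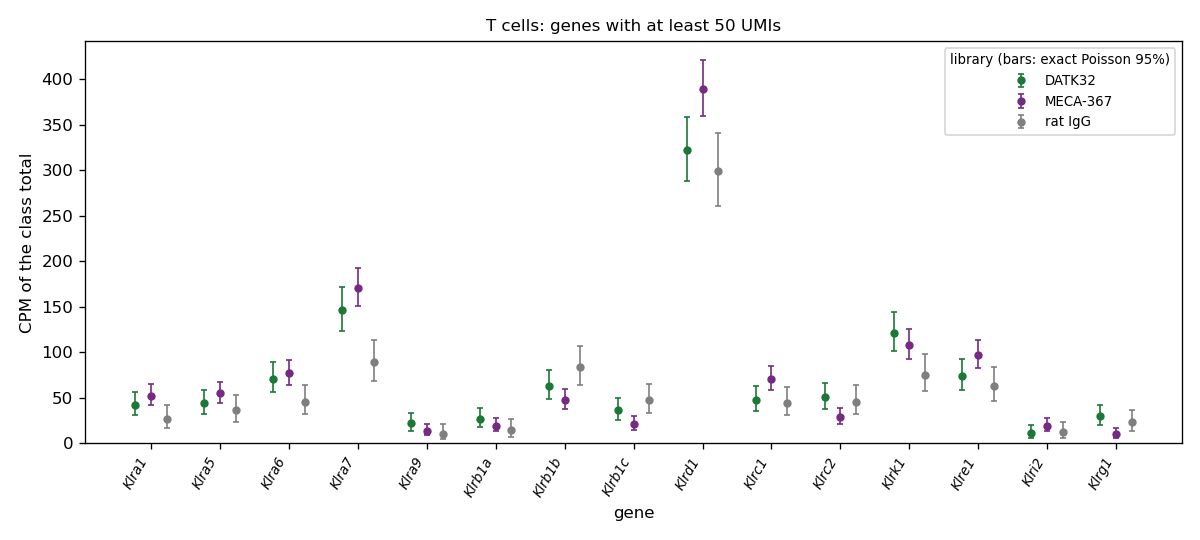
Levels of the 15 measured Klr genes in T cells, as CPM (y axis) with 95% counting intervals from the Poisson distribution, for the DATK32 (green), MECA-367 (purple) and rat IgG (grey) libraries. Klra7 is higher in both antibody libraries than in rat IgG, Klra1 is higher in MECA-367, Klrb1b and Klrb1c are lower in MECA-367, and Klrg1 is lower in MECA-367 than in DATK32. The Klrb1b and Klrb1c differences were no longer called under median-of-ratios scaling.

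Libraries differed in the sub-clusters that made up the T cells. The Serpinb9-led sub-cluster had 86, 133 and 56 cells, the Prag1-led one 97, 161 and 48, the cytotoxic-like one 27, 61 and 19, and the Ly6c2-led one 130, 60 and 168. The 5 sub-clusters with the highest Klra7 level over the libraries are given here, chosen after the values were seen, and in each of them both antibody libraries were above rat IgG. In the Serpinb9-led cells it had 230, 336 and 97.6 CPM, in the Hspa1a-led cells 277, 188 and 113 CPM, in the Ly6c2-led cells 256, 305 and 159 CPM, in the Prag1-led cells 355, 295 and 269 CPM, and in the cytotoxic-like cells 476, 356 and 280 CPM for DATK32, MECA-367 and rat IgG. Only in the Serpinb9-led cells of MECA-367 was the interval apart from that of rat IgG (269 to 415 against 31.7 to 228 CPM). Outside them the order varied: the Il22-led cluster of T cells had Klra7 at 35.2, 12.0 and 22.4 CPM, from 15, 8 and 6 UMIs, so there MECA-367 was below rat IgG with too few UMIs to be measured. With the sub-clusters weighted to the same shares in each library, T cell Klra7 stood at 153, 166 and 93.1 CPM, Klrk1 at 118, 116 and 79.8 CPM, Klra1 at 43.0, 54.9 and 31.0 CPM, and Klrg1 at 27.7, 11.2 and 24.7 CPM. Weighted in the same way, Klrb1b stood at 67.5, 43.5 and 112 CPM and Klrb1c at 36.8, 21.7 and 58.5 CPM.

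In the Cd7-led T cells on their own, 12 Klr genes were measured. In DATK32 against rat IgG 2 of them were called, against 2.12% of all genes, and these were again Klra7 (log2 ratio 0.81) and Klrk1 (log2 ratio 0.84), both higher. In MECA-367 against rat IgG 6 of 12 were called, against 7.7% of all genes. Klra1, Klra6, Klra7, Klre1 and Klrk1 were higher, with log2 ratios from 0.66 for Klrk1 to 1.15 for Klra7, and Klrb1b was lower (log2 ratio -1.35). In DATK32 against MECA-367, Klrc2 was higher (log2 ratio 0.95), against 4.81% of all genes called. In the Il22-led T cells, 5 Klr genes were measured. In MECA-367 against rat IgG Klrc1 was called higher, at 65.8 CPM [47.8 to 88.3] against 14.9 CPM [4.07 to 38.2] in rat IgG, where 9.1% of all genes were called. In DATK32 against MECA-367 Klrg1 was higher, at 70.5 CPM against 25.4 CPM in MECA-367, where 8.47% were called, and in DATK32 against rat IgG 0 of 5 were called, against 1.88% of all genes.

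RNA of other cell types also differed within T cells. The 8 epithelial markers summed to 1439, 436 and 1586 CPM, the 7 plasma cell markers to 1376, 819 and 1377 CPM and the 7 neutrophil markers to 42.3, 535 and 133 CPM for DATK32, MECA-367 and rat IgG. The 9 NK cell markers, none of them a Klr gene, summed to 2270, 3394 and 2107 CPM in T cells, and to 3131, 5052 and 2593 CPM in the Cd7-led ones. Their part in the results was not tested. Among the Ly49 genes higher in NK cells with ILC1, T cells had 5.77, 14.4 and 8.08 CPM for Klra4 and 1.92, 2.49 and 6.74 CPM for Klra8. Klra9 and Klra3 also belong to these genes. So does Klra7, whose level in NK cells with ILC1 was above that in T cells in every library, though only slightly in DATK32. In T cells Klra9 had log2 ratios to rat IgG of 0.93 for DATK32 and 0.24 for MECA-367, neither called. Klra3, with 49 UMIs in T cells, was not measured.

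In myeloid and plasma cells few members were measured. In monocytes with macrophages, 4 genes were measured, and in MECA-367 against rat IgG Klra2 was called higher, at 125 CPM [108 to 144] against 77.0 CPM [59.2 to 98.6] in rat IgG (log2 ratio 0.69), where 8.14% of all genes were called. In DATK32 0 of the 4 were called relative to rat IgG (2.54% of all genes) or to MECA-367 (5.79% of all genes). In neutrophils Klra17 was higher in MECA-367 than in rat IgG, at 20.9 CPM [15.4 to 27.6] against 5.09 CPM [1.05 to 14.9] from 3 UMIs (log2 ratio 1.65), but 25.3% of all genes were called there, and the median log2 ratio over all genes was -0.41. In DATK32 against rat IgG 0 of the 2 measured genes were called (4.71% of all genes). In DATK32 against MECA-367 Klra17 was lower (log2 ratio -1.56; 11.7% of all genes called). In plasma cells Klrk1 had 12.5, 17.6 and 6.98 CPM in DATK32, MECA-367 and rat IgG, beside 14.9, 17.9 and 10.3 CPM in stromal cells. Its values in MECA-367 and rat IgG met the rule for a call (12% of all genes did). Neither was above the stromal value of its library, and the part of RNA from other cells was not tested. In plasma cells 0 of 2 genes were called in DATK32 against rat IgG (3.23% of all genes) or against MECA-367 (6.1% of all genes). ILC2 had 41 cells in rat IgG and were not compared. In B cells the single measured gene, Klrd1, was not called for DATK32 (2.9% of all genes) or MECA-367 (5.87% of all genes) relative to rat IgG, nor between the antibodies (2.66% of all genes).

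Of the partners of these receptors, the adaptor Tyrobp had 1099 CPM in NK cells with ILC1 and 195 CPM in T cells, Fcer1g had 1251 CPM and 420 CPM, and Hcst had 490 CPM and 410 CPM. Of 10 adaptors and signalling partners, 6 were measured in NK cells with ILC1 and 0 were called for DATK32 (2.36% of all genes) or MECA-367 (3.95%) relative to rat IgG or between the antibodies (4.13%). In T cells 9 were measured and 1 was called in MECA-367 against rat IgG (8.66% of all genes). It was Fcer1g, which was higher, at 517 CPM in MECA-367 against 298 CPM in rat IgG (log2 ratio 0.79). Fcer1g was also called higher in that comparison in epithelial cells (5.1% of all genes), plasma cells (12%) and neutrophils (25.3%). It was not called in monocytes with macrophages (8.14%) or B cells (5.87%). Neutrophil markers in T cells summed to 535 CPM in MECA-367 and 133 CPM in rat IgG, and their part was not tested. In T cells 0 of the 9 were called in DATK32 against rat IgG (1.81% of all genes) or against MECA-367 (6.61%).

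Of 17 ligand genes, H2-T23, which encodes Qa-1, was found in all classes, from 93.3 CPM in epithelial cells to 394 CPM in endothelial cells. Clec2d, the ligand of the Klrb1b product, had its highest level in endothelial cells, 446 CPM. Clec2h was at 85.5 CPM in epithelial cells and at most 17.6 CPM in any leukocyte class. Cdh1 (E-cadherin), a KLRG1 ligand, had 364 CPM in epithelial cells. The NKG2D ligand genes Raet1d, Raet1e, H60b, H60c and Ulbp1 stayed at or below 11.0 CPM in each class. In epithelial cells 8 ligand genes were measured and 0 were called between libraries, where 1.95% of all genes were called for DATK32 and 5.1% for MECA-367, each relative to the control antibody, and 3.12% between the clones. In T cells 6 ligand genes were measured and 1 was called in MECA-367 against rat IgG, where 8.66% of all genes were. It was Cdh1, an epithelial transcript, which was lower, at 26.8 CPM in MECA-367 against 71.4 CPM in rat IgG. Cdh1 was also the only one called in DATK32 against MECA-367, where it was higher (6.61% of all genes called). The 8 epithelial markers summed to 436 CPM in T cells of MECA-367 and 1586 CPM in those of rat IgG, and their part was not tested. In neutrophils 6 ligand genes were measured and 4 were called in MECA-367 against rat IgG, where 25.3% of all genes were. H2-T23 (274 CPM in MECA-367 against 173 CPM in rat IgG, log2 ratio 0.65) and H2-D1 (log2 ratio 0.77) were higher, and Clec2h (log2 ratio -1.82) and Cdh1 (log2 ratio -1.43) were lower. In B cells 2 of 5 ligand genes were called in the same comparison, where 5.87% of all genes were, both higher: H2-T23, at 384 CPM in MECA-367 against 160 CPM in rat IgG (log2 ratio 1.27), and H2-D1 (log2 ratio 0.59).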

How the data were processed

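Per the labels' protocols, live cells stained for CD45 were collected by flow sorting, and libraries were made with the 10x 3' kit v3.1. Per the submitters' processing notes, reads were processed with Cell Ranger 6.0.2 on genome build mm10. The deposited matrices hold UMI counts per gene and barcode, not normalized by the authors. The annotation, barcode filter and strand setting are not given in the sources used here. The libraries held 28030376, 27846540 and 30359331 UMIs in 8445, 8387 and 10826 barcodes for DATK32, MECA-367 and rat IgG, and the mitochondrial limit removed 30.7%, 29.6% and 31.9% of the barcodes.

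Cells were scaled to 10000, and 2000 variable genes, 30 principal components (20 for sub-clusters), 15 neighbours and Leiden resolution 1.0 (scanpy 1.11.5, igraph 0.11.9, seed 1) gave 29 clusters, of which 25 were named from marker lists where the best score reached 0.5 and led the next by 0.3, with 3 markers found in 5% of cells. Scrublet at an expected rate of 8% marked 1, 0 and 0 cells, so doublets largely remain. Class counts were summed, and exact intervals (scipy 1.17.1) cover counting error only. With 1 library per group, cells were not treated as replicates and no test was made. The ratio step was tested on simulated data. Genes with at least 20 UMIs over the leukocytes were named. The members, lists, markers and thresholds were chosen with earlier results of these data known.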

Additional observations from a re-analysis of the deposited data

Results flagged for a closer look

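Barcodes over the mitochondrial limit were left out of every comparison. In those of MECA-367 (2428 barcodes) Klrd1 stood at 8.19 CPM, against 2.86 CPM in those of rat IgG (3442 barcodes). Klra2 stood there at 5.11 CPM in MECA-367, against 1.47 CPM in rat IgG. Both were singled out because a signal in unused data was above the control library; the DATK32 barcodes left out had 4.73 CPM of Klrd1 and 1.61 CPM of Klra2. Klra17 was also higher, with 15 UMIs in MECA-367 against 4 in rat IgG. These values hold no check for how many leukocytes the left-out barcodes contain.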

How the results depend on the processing

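No paired analysis was possible because each group is 1 library. Counts of called Klr genes moved as follows, and the cause was not tested. In NK cells with ILC1, DATK32 against MECA-367 (2 called) gave 4 with Klr genes left in the clustering, 1 at resolution 2.0 or without the ILC1-like cells, and 0 with at least 1000 UMIs and 500 genes or with no mitochondrial limit. There, DATK32 against rat IgG (0 called) gave 1 with 15 components, and MECA-367 against rat IgG (2 called) gave 4 with Klr genes left in or a mitochondrial limit of 5%, and 1 with the highest doublet scores removed or without the ILC1-like cells. In T cells, DATK32 against MECA-367 (1 called) gave 2 with Klr genes left in, doublet scores removed or classes picked cell by cell, 0 at the 5% limit and 4 with no limit. DATK32 against rat IgG (2 called) gave 4 at resolution 2.0 or with no limit, 1 cell by cell and 0 in the Il22-led cluster alone. MECA-367 against rat IgG (4 called) gave 2 at the 5% limit, 8 with no limit and 1 in the Il22-led cluster alone.

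The share of Klr UMIs in NK cells with ILC1 was, for DATK32, MECA-367 and rat IgG, 40.5%, 37.8% and 28.8% with Klr genes left in, 41.1%, 39.5% and 27.1% at resolution 2.0, 24.0%, 38.2% and 8.82% with 15 components, 42.4%, 40.5% and 27.6% at the 5% limit, 36.7%, 35.95% and 22.6% with no limit, and 34.7%, 33.0% and 18.7% with doublet scores removed. It was 27.8% in MECA-367 and 11.3% in rat IgG with at least 1000 UMIs, and 34.9% in MECA-367 and 20.9% in rat IgG cell by cell. The rat IgG share was below that of MECA-367 in each of these settings. Klrb1b in T cells, MECA-367 against rat IgG, reversed to 0.19 with Klr genes left in and to 0.43 in the Il22-led cluster alone. Against rat IgG, the Klra7 call in T cells of MECA-367 held in 12 of 12 alternatives with a value, and that of DATK32 in 11 of 12. In the Il22-led cluster alone Klra7 had too few UMIs to be measured. Other T cell calls of MECA-367 against rat IgG held less often: Klra1 in 9 of 12, Klrb1c in 6 of 11 and Klrb1b in 5 of 12. In NK cells with ILC1, that comparison kept Klrd1 in 10 of 13 and Klra8 in 7 of 13. There, DATK32 against MECA-367 kept Klrd1 and Klra7 in 9 of 13 each. Median-of-ratios scaling raised all T cell log2 ratios to rat IgG by 0.13 for DATK32 and 0.16 for MECA-367 (0.24 and 0.19 in NK cells with ILC1), and the calls of Klra8, Klrb1b and Klrb1c were then lost. Resolution 0.5 gave no NK or T cell class and 15 components no T cell class, so these have no values. The settings that use the Il22-led cluster, leave out ILC1-like cells or equalise sub-cluster shares were chosen after seeing the data.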
